A study of Homo sapiens with 21 samples.

Results

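The cholesterol module comprised 28 measured genes of a list of 29, taken by gene symbol from the 6 expression tables of the series. The list was drawn up by function, by a rule that uses no measured value, though with earlier results of these data known, and it covered cholesterol synthesis, its control, cellular uptake and trafficking, and esterification. INSIG1 was the list member not analysed here. All 28 measured members passed the filter on low values, which asked for an FPKM of 1 or more in 3 libraries or more, and they were 28 of the 13405 genes tested. FPKM, a fragment count scaled by gene length and by a library total, is a level per gene length.

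Animal cells build cholesterol from acetyl-CoA through mevalonate and farnesyl diphosphate to squalene, and then convert lanosterol to cholesterol by a chain of enzymes in the endoplasmic reticulum. When sterols are low, the escort protein SCAP carries the membrane-bound transcription factor SREBP2, the product of SREBF2, to the Golgi, where proteases release its active part. INSIG proteins hold SCAP in the endoplasmic reticulum when sterols are high. Hepatocytes both make cholesterol and take it up from lipoproteins, and the lysosomal proteins NPC1 and NPC2 pass the sterol taken up to the rest of the cell.

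RNA was sequenced in 21 libraries of C3A, a human hepatoma line cloned from HepG2 cells. Exposures lasted 48 h, with 3 libraries each: glyphosate, a broad-spectrum herbicide, at 5.6 µM (0.95 µg/mL); AMPA (aminomethylphosphonic acid), its breakdown product, at 34 µM (3.7 µg/mL); 2,4-D, a herbicide that mimics auxin, at 2.5 µM (0.56 µg/mL); and 2 mixtures, of 2,4-D with glyphosate or with AMPA, each compound at the level used alone. Unexposed cells gave 6 libraries, of which libraries 4 to 6 and libraries 1 to 3 differed from each other and are also given apart. All groups were of 1 cell line labelled as wild type, and the labels do not say whether libraries came from separate cultures, so p-values measure the spread between these libraries, which may be technical.

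Libraries held 15.2 to 24.35 M recovered reads, and each member had between 103 and 3597 reads in a library. The library total implied by the deposited FPKM was 0.942 to 1.009 times the recovered reads in exposed libraries. In unexposed libraries it was 1.029 to 1.082 times, so the deposited values were not scaled by each library's own depth alone. Of 7 hepatocyte and hepatoma markers, 5 (ALB, AFP, TTR, APOA2 and TF) were higher in every exposure against unexposed cells, HNF4A was lower in every exposure (log2 -0.84 to -0.69, SE 0.04), and FGB passed in none. The marker differences depended on the unexposed set: against libraries 4 to 6, ALB passed in 1 exposure (0.08 to 0.21) and FGB was lower in 4, while against libraries 1 to 3 both were higher in all 5. The summed marker level was 8492 to 10100 FPKM in exposed libraries, 7666 to 8668 FPKM in unexposed libraries 4 to 6 and 5575 to 5906 FPKM in unexposed libraries 1 to 3. The markers of other liver cells, 6 of 7 listed, summed to at most 0.359 FPKM in exposed and 0.291 FPKM in unexposed libraries, with LRAT at 0 in all unexposed libraries. Ribosomal protein genes took 7.20 to 8.31% of reads in exposed libraries, 6.47 to 6.57% in unexposed libraries 4 to 6 and 5.71 to 5.79% in unexposed libraries 1 to 3. The part of these shifts in the results was not tested. The labels name no batch, so an exposure cannot be told apart from anything else the exposed libraries share, nor, in bulk RNA, less RNA per cell from fewer cells of a type.

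Promoter sequence was available from RefSeq (GRCh38.p14) for 24 of the 28 members. In the 250 bases before the RefSeq start, the sterol regulatory element core TCACNCCA, searched on both strands, lay in 3 members (MVK, MSMO1 and SREBF2), against 3.20% of all 35116 promoters and 2.76% of the 8708 of tested genes. The CCAAT box, the usual partner site of SREBP2 at sterol genes, lay in 18 members, against 32.0% of all promoters and 35.2% of those of tested genes. The motifs can share the letters CCA, which they did in none of the 3 members, and a match is a description of the letters only. The core is shown in its context for the gene of the transcription factor itself, at chr22:41832952-41832999 (plus strand), and for MSMO1, a synthesis enzyme, at chr4:165327493-165327540 (plus strand), with the core in capitals.
SREBF2: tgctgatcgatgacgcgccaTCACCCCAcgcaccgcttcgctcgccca
MSMO1: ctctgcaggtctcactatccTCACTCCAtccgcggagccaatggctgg

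The 3 members with the largest mean absolute difference from unexposed cells over the 5 exposures are shown next, with each CCAAT box in capitals on either strand (ATTGG on the reverse). INSIG2, at chr2:118088221-118088451 (plus strand), held neither motif in its 250 bases and is shown up to the first annotated exon base. DHCR7, whose RefSeq start lies inside the span the files give, at chr11:71448436-71448643 (minus strand), held 2 CCAAT boxes, and NPC1L1, at chr7:44541331-44541580 (minus strand), held 1.
INSIG2: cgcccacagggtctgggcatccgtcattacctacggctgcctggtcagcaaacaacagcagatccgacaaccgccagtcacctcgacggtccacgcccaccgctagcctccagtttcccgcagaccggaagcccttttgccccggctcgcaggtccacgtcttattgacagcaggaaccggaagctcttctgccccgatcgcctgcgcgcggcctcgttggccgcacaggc
DHCR7: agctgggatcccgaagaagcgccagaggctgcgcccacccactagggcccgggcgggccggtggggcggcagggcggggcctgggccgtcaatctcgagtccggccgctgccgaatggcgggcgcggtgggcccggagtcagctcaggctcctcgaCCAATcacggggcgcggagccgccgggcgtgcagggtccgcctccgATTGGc
NPC1L1: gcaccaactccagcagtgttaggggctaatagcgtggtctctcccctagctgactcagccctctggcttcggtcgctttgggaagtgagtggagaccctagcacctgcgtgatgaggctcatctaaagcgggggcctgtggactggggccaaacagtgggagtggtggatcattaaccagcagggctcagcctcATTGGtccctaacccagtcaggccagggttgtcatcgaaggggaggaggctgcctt

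Against unexposed cells, the module moved in both directions in every exposure, and INSIG2 and DHCR7 had its largest increases. A member was called at a limma adjusted p under 0.05, Benjamini-Hochberg over all 13405 genes, on log2(FPKM + 1), a scale that understates changes of low genes. Glyphosate gave 5 members higher, against 27.7% of all genes, and 8 lower, against 25.1%. AMPA gave 7 higher (28.0% of all genes) and 9 lower (24.8%), and 2,4-D gave 5 higher (25.0%) and 11 lower (22.6%). The mixture glyphosate+2,4-D gave 5 higher (25.4%) and 9 lower (22.7%), and AMPA+2,4-D gave 5 higher (26.0%) and 13 lower (24.4%). As shares of the 28 members, 17.9 to 25.0% were higher and 28.6 to 46.4% lower, so the higher share lay below that of all genes in each exposure and the lower share above it. The margin was small for the lower members with glyphosate, 28.6% against 25.1%, and largest with AMPA+2,4-D, 46.4% against 24.4%. For the higher members it was small with AMPA, 25.0% against 28.0%. All 5 comparisons share the same unexposed libraries.

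The median member differed by -0.10 with glyphosate, -0.09 with AMPA, -0.10 with 2,4-D, -0.09 with glyphosate+2,4-D and -0.13 with AMPA+2,4-D (log2), against medians over all genes of 0.00 to 0.01. The AMPA median was -0.05 without AMPA library 2, and against unexposed libraries 1 to 3 alone it was -0.01 with AMPA and -0.06 with glyphosate. Rescaling to TPM, which moved the median of all genes to between -0.14 and -0.08, split the calls into 1 to 4 members higher and 16 to 19 lower, with all genes tilted the same way (15.9 to 19.8% higher, 30.8 to 38.7% lower), while the member median relative to all genes lay at -0.15 to -0.11, against -0.13 to -0.09 on the deposited scale. The AMPA+2,4-D count of 18 calls was 10 without its library 3, and the glyphosate+2,4-D count of 14 was 9 without its library 3. The same counts over all genes are not given here, so these drops are not set against those of other genes. Without AMPA+2,4-D libraries 1 and 3, which leaves 1 library, the member median was -0.12.

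Both unexposed sets were then used in turn, and a member counted where it was called with the same sign against each. Glyphosate left 4 members higher (21% of all genes did so) and 6 lower (18.1%). AMPA left 6 higher (21.6%) and 6 lower (18.2%), 2,4-D left 4 higher (18.5%) and 6 lower (15.9%), and glyphosate+2,4-D left 4 higher (18.7%) and 4 lower (16.1%). AMPA+2,4-D left 1 higher (19.6%) and 7 lower (17.1%), a total of 8 that was 5 without its library 3 or without unexposed library 1. INSIG2 was higher and SQLE lower against both sets in all 5 exposures, and 10 members passed against both sets in no exposure. The share of all genes with these patterns over the 5 exposures was not counted.

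**Figure D1:**
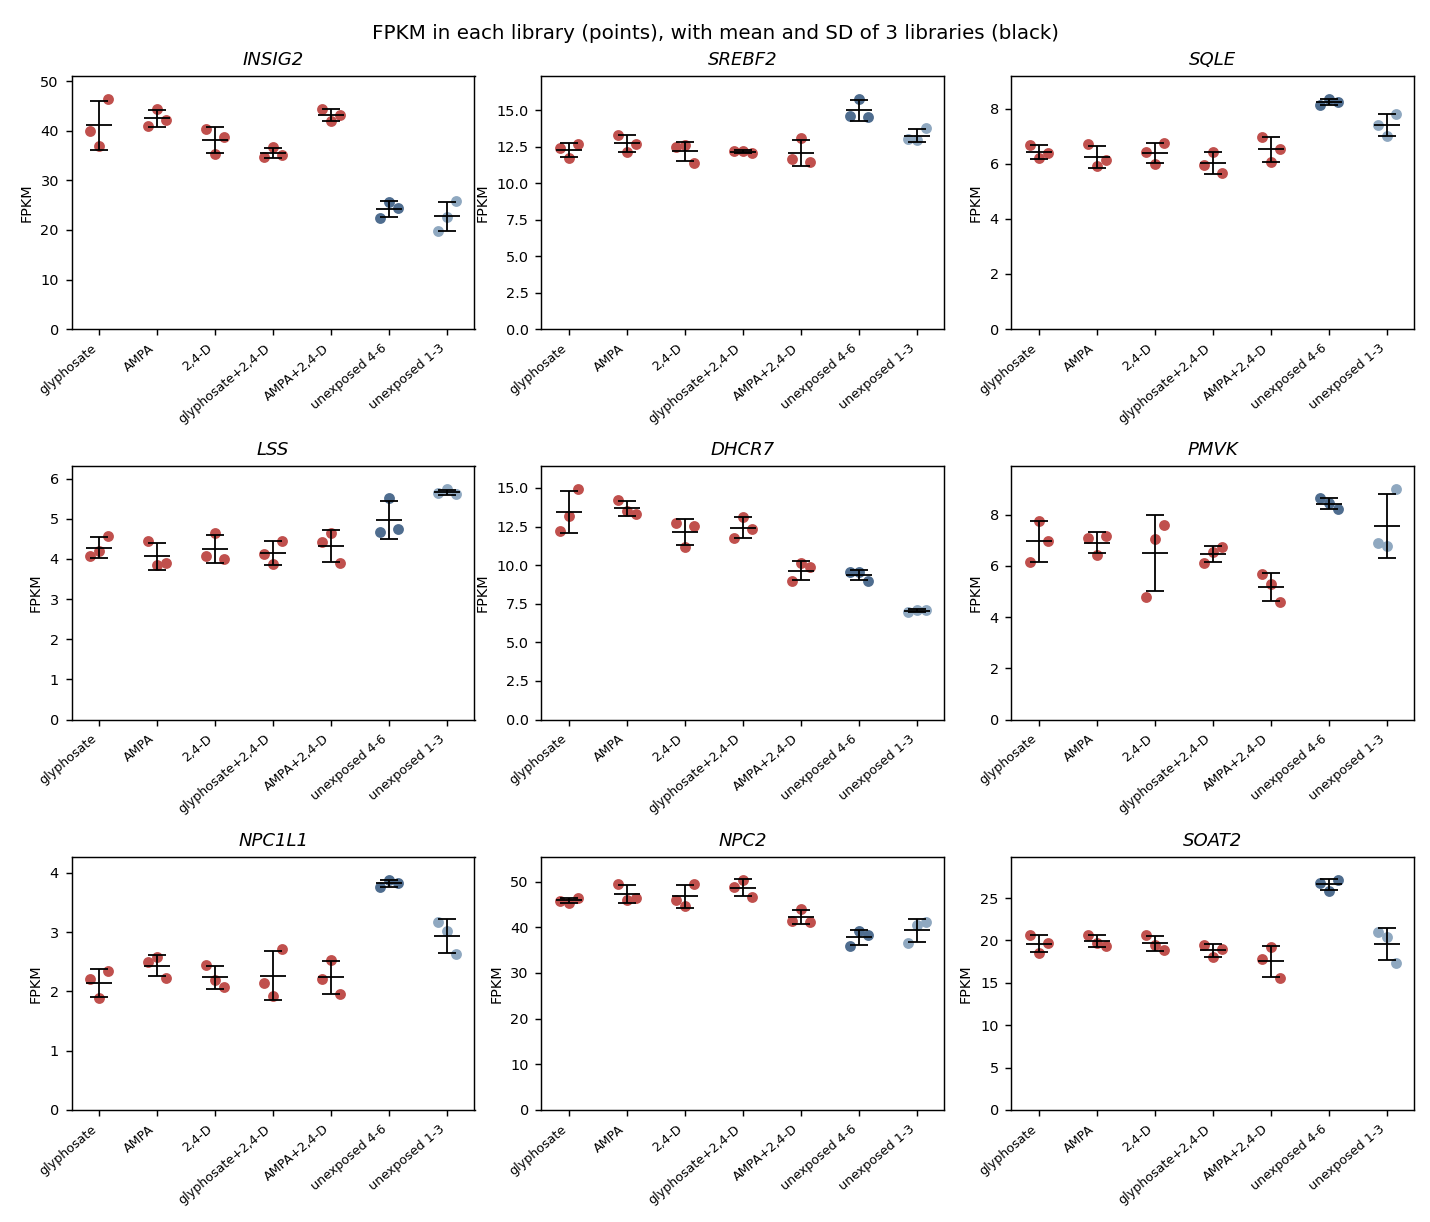
FPKM (vertical axis, from 0) in each library (points) of 9 members in the 5 exposures, in unexposed libraries 4 to 6 and in unexposed libraries 1 to 3, with the mean and SD of 3 libraries in black. INSIG2 lies at 34.7 to 46.5 FPKM in all exposed libraries, above the 19.9 to 25.8 FPKM of all unexposed ones, while SOAT2 in exposed libraries overlaps unexposed libraries 1 to 3 and lies below libraries 4 to 6.

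Among the genes of sterol sensing, INSIG2 rose in every exposure, SREBF2 fell in every exposure by a small amount, and SCAP passed in none. INSIG2 (ENSG00000125629, chromosome 2, 118088452 to 118110997 in GRCh38), which retains SCAP in the endoplasmic reticulum, had 39.9, 36.9 and 46.5 FPKM with glyphosate and 41.0, 44.4 and 42.2 FPKM with AMPA. It had 40.4, 35.4 and 38.8 FPKM with 2,4-D, 34.7, 36.8 and 35.2 FPKM with glyphosate+2,4-D, and 44.4, 41.9 and 43.2 FPKM with AMPA+2,4-D. Unexposed libraries 4 to 6 had 22.5, 25.7 and 24.5 FPKM and libraries 1 to 3 had 19.9, 22.6 and 25.8 FPKM. Every exposed library was thus above every unexposed one.

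The INSIG2 difference was 0.78 with glyphosate, 0.83 with AMPA, 0.68 with 2,4-D, 0.58 with glyphosate+2,4-D and 0.86 with AMPA+2,4-D (log2, SE 0.07, limma adjusted p = 6.42e-08 to 5.58e-06). Against unexposed libraries 4 to 6 it was 0.54 to 0.81 and against libraries 1 to 3 it was 0.63 to 0.90 (log2, SE 0.08). INSIG2 did not pass between the unexposed sets (0.09 ± 0.08, SE). Its call in each exposure held in each alternative fit that was run.

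SREBF2, the gene of SREBP2, averaged 12.1 to 12.7 FPKM over the exposures, against 14.97 ± 0.690 FPKM in unexposed libraries 4 to 6 and 13.2 ± 0.457 FPKM in libraries 1 to 3 (SD, n = 3 each). Its differences of -0.21 to -0.14 (log2, SE 0.06) passed in each exposure (limma adjusted p = 0.00486 to 0.0476). Against libraries 1 to 3 it passed with AMPA+2,4-D alone (-0.13, limma adjusted p = 0.0433), and it was itself higher in unexposed libraries 4 to 6 than in 1 to 3 (0.16 ± 0.05, SE, limma adjusted p = 0.0208). Single libraries also decided calls: without glyphosate library 2 (limma adjusted p = 0.0634) or 2,4-D library 3 (0.0647) the call in that exposure was lost, and the AMPA call was lost without AMPA library 2 (0.194) or 3 (0.106) and, by less, without other single libraries. SCAP, the escort protein, lay at 19.2 to 21.3 FPKM on average over the exposures and at 20.4 ± 0.966 FPKM in unexposed cells (SD, n = 6), with differences of -0.08 to 0.06 (log2, SE 0.04).

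The early steps from acetyl-CoA to farnesyl diphosphate were mostly close to unexposed cells, with FDPS higher in 4 exposures and PMVK, MVD and IDI1 lower in some. In each exposure 1 of these 7 members was higher, and the lower count was 0 with glyphosate and AMPA, 2 with 2,4-D, 1 with glyphosate+2,4-D and 3 with AMPA+2,4-D, beside 25.0 to 28.0% higher and 22.6 to 25.1% lower among all genes. FDPS, which makes farnesyl diphosphate, averaged 17.3 ± 1.16 FPKM with glyphosate, 17.1 ± 0.559 with AMPA, 17.2 ± 0.712 with 2,4-D, 18.0 ± 1.08 with glyphosate+2,4-D and 15.2 ± 0.814 with AMPA+2,4-D, against 14.4 ± 1.05 FPKM in unexposed cells (SD, n = 3 and 6). The first 4 passed against both unexposed sets, at 0.23 to 0.30 (log2, SE 0.06, limma adjusted p = 0.000289 to 0.00227 against all unexposed libraries). With AMPA+2,4-D FDPS had 0.08 (limma adjusted p = 0.283), and the AMPA call was lost after rescaling to TPM (0.08, limma adjusted p = 0.257).

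PMVK (ENSG00000163344, chromosome 1, 154924734 to 154936991), phosphomevalonate kinase, had the largest mean difference of this group. It had 6.15, 7.77 and 6.96 FPKM with glyphosate, 7.10, 6.43 and 7.16 with AMPA, 4.80, 7.07 and 7.59 with 2,4-D, 6.12, 6.54 and 6.75 with glyphosate+2,4-D and 5.67, 5.29 and 4.59 with AMPA+2,4-D. Unexposed cells had 6.78 at the lowest, a median of 8.32 and 8.99 FPKM at the highest. The AMPA+2,4-D libraries lay below all unexposed ones, as did those of glyphosate+2,4-D, while the other 3 exposures overlapped them. The difference was -0.54 ± 0.11 with AMPA+2,4-D (log2, SE, limma adjusted p = 0.000515) and -0.28 with 2,4-D (limma adjusted p = 0.0425). Against unexposed libraries 4 to 6 PMVK was lower in 3 exposures (-0.61 to -0.25 over all 5). Against libraries 1 to 3 it was lower with AMPA+2,4-D alone (-0.46, in a range of -0.46 to -0.10). The 2,4-D call was lost without its library 1, where the difference was -0.10 (limma adjusted p = 0.420), and without unexposed library 3, 4, 5 or 6 (0.0624 to 0.0794). At 103 to 240 reads per library PMVK held the lowest count of any member in a library.

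MVD, the decarboxylase that makes isopentenyl diphosphate, was lower with AMPA+2,4-D, at 6.86 ± 0.726 FPKM against 8.33 ± 0.659 FPKM in unexposed cells (SD, n = 3 and 6; -0.25 ± 0.06, SE, limma adjusted p = 0.00316), and had -0.07 to 0.01 elsewhere. IDI1, the isomerase that follows it, was lower with 2,4-D (-0.14), glyphosate+2,4-D (-0.17) and AMPA+2,4-D (-0.13, SE 0.05, limma adjusted p = 0.0101 to 0.0387), and these calls were lost without 2,4-D library 1 (0.182) or 3, without glyphosate+2,4-D library 3 (0.0595) and without any 1 of the AMPA+2,4-D libraries (0.0624 to 0.140). HMGCS1, which makes HMG-CoA, passed with AMPA+2,4-D alone (0.13 ± 0.05, SE, limma adjusted p = 0.0291), a call lost without that exposure's library 1 or 3 or unexposed library 1 or 3. After rescaling to TPM, HMGCS1 passed as lower with glyphosate (-0.19), AMPA (-0.13) and glyphosate+2,4-D (-0.13), and had 0.02 with AMPA+2,4-D. ACAT2, the cytosolic thiolase, and MVK, mevalonate kinase, passed in no exposure against all unexposed libraries. Against libraries 4 to 6 alone, ACAT2 was lower in all 5 exposures (-0.28 to -0.19, SE 0.07, limma adjusted p = 0.00233 to 0.0245), and against libraries 1 to 3 in none (-0.04 to 0.04). The exons of ACAT2 overlap TCP1 on the opposite strand by 397 bases, and TCP1 averaged 73.7 FPKM against 9.14 FPKM for ACAT2, so without known strand their reads cannot be told apart there. MVK likewise shares 306 bases with MMAB (3.57 FPKM for MMAB and 1.80 FPKM for MVK).

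From squalene to cholesterol, SQLE and LSS fell in every exposure, MSMO1, LBR and HSD17B7 in most, and DHCR7 rose in 4. Of these 11 members, 1 was higher and 5 lower with glyphosate, 3 and 5 with AMPA, 1 and 5 with 2,4-D, 2 and 3 with glyphosate+2,4-D, and 1 and 6 with AMPA+2,4-D, beside 25.0 to 28.0% higher and 22.6 to 25.1% lower over all genes. SQLE (ENSG00000104549), squalene epoxidase, had 6.68, 6.21 and 6.38 FPKM with glyphosate, 6.70, 5.94 and 6.13 with AMPA, 6.44, 6.00 and 6.74 with 2,4-D, 5.97, 6.43 and 5.66 with glyphosate+2,4-D and 6.96, 6.08 and 6.53 with AMPA+2,4-D. Unexposed libraries 4 to 6 had 8.12, 8.36 and 8.25 FPKM and libraries 1 to 3 had 7.42, 6.99 and 7.80 FPKM. All exposed libraries lay below all unexposed ones, though AMPA+2,4-D library 1 and unexposed library 2 differed by less than the SD within either group.

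The SQLE difference was -0.33 to -0.23 over the exposures (log2, SE 0.06, limma adjusted p = 0.000113 to 0.00253), -0.40 to -0.30 against unexposed libraries 4 to 6 and -0.26 to -0.16 against libraries 1 to 3. LSS, lanosterol synthase, which closes the sterol ring, averaged 4.07 to 4.32 FPKM over the exposures, against 4.98 ± 0.470 FPKM in unexposed libraries 4 to 6 and 5.66 ± 0.0649 FPKM in libraries 1 to 3 (SD, n = 3 each). It differed by -0.32 to -0.25 (log2, SE 0.07, limma adjusted p = 0.000821 to 0.00605). Against libraries 4 to 6 it did not pass with AMPA+2,4-D (-0.17), and that exposure's call was also lost without its library 3 (limma adjusted p = 0.0581).

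DHCR7 (ENSG00000172893, chromosome 11, 71428193 to 71452868), the reductase of the last step to cholesterol, had 12.2, 13.2 and 14.9 FPKM with glyphosate, 14.2, 13.5 and 13.3 with AMPA, 12.8, 11.2 and 12.5 with 2,4-D, 11.8, 13.1 and 12.3 with glyphosate+2,4-D and 8.96, 10.1 and 9.86 with AMPA+2,4-D. Unexposed libraries 4 to 6 had 9.56, 9.57 and 8.97 FPKM and libraries 1 to 3 had 6.95, 7.08 and 7.12 FPKM. In 4 exposures every library exceeded every unexposed one, while AMPA+2,4-D overlapped unexposed libraries 4 to 6. The 4 differences were 0.66, 0.68, 0.52 and 0.55 (log2, SE 0.09, limma adjusted p = 7.95e-06 to 0.000165), and AMPA+2,4-D had 0.22 (limma adjusted p = 0.0577). The unexposed sets themselves differed by 0.36 ± 0.06 (SE, libraries 4 to 6 higher, limma adjusted p = 0.000254), so that the differences were 0.34 to 0.50 against libraries 4 to 6 and 0.71 to 0.87 against libraries 1 to 3 in those 4 exposures.

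MSMO1, a C4-methyl sterol oxidase, was lower in 4 exposures (-0.22 to -0.19, log2, SE 0.06), with AMPA+2,4-D only while its library 2 was kept, and had -0.14 with glyphosate+2,4-D (limma adjusted p = 0.0504). LBR, a nuclear envelope protein with sterol C14-reductase activity, was lower in 4 exposures (-0.33 to -0.20, SE 0.06), of which the glyphosate+2,4-D call was lost without its library 1 (limma adjusted p = 0.0555), and had -0.12 with AMPA+2,4-D. It too differed between the unexposed sets, at 13.4 ± 0.301 FPKM in libraries 4 to 6 and 16.04 ± 0.467 FPKM in libraries 1 to 3 (SD, n = 3 each), with exposure means of 11.4 to 13.4 FPKM. TM7SF2, the other C14-reductase, was lower with 2,4-D (-0.28) and AMPA+2,4-D (-0.35, SE 0.09), the first call being lost without 2,4-D library 1 (limma adjusted p = 0.142). Against libraries 4 to 6 TM7SF2 was lower in all 5 exposures (-0.48 to -0.25, SE 0.09), and against libraries 1 to 3 with AMPA+2,4-D alone (-0.22, in a range of -0.22 to 0.02).

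HSD17B7, a 3-ketosteroid reductase of the pathway, was lower with glyphosate, AMPA and AMPA+2,4-D (-0.27 to -0.24, SE 0.06), at 1.77 to 1.83 FPKM against 2.34 ± 0.167 FPKM in unexposed cells (SD, n = 6). Its value is uncertain, since the pseudogene HSD17B7P2 stood at 7.45 FPKM and could share reads with it. EBP, the sterol isomerase, was higher with AMPA (0.23) and glyphosate+2,4-D (0.16, SE 0.05), and SC5D, the C5-desaturase, with AMPA (0.18) and AMPA+2,4-D (0.16, SE 0.06). The EBP call in the mixture was lost without its library 3, and those of SC5D without AMPA library 1 or 2 and without AMPA+2,4-D library 1 or 3 or any of unexposed libraries 3 to 6. After rescaling to TPM all of these were lost, with EBP at 0.08 and 0.05 and SC5D at 0.03 and 0.06. Against libraries 4 to 6 SC5D was higher in 4 exposures and against libraries 1 to 3 in 0, whereas EBP was higher in 4 against libraries 1 to 3 and, against libraries 4 to 6, higher with AMPA (0.15) and lower with AMPA+2,4-D (-0.13). FDFT1, squalene synthase, passed as lower with AMPA+2,4-D alone (-0.12 ± 0.04, SE) but not without that exposure's library 1 or 3, and NSDHL, a dehydrogenase of C4 demethylation, passed in no exposure.

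**Figure D2:**
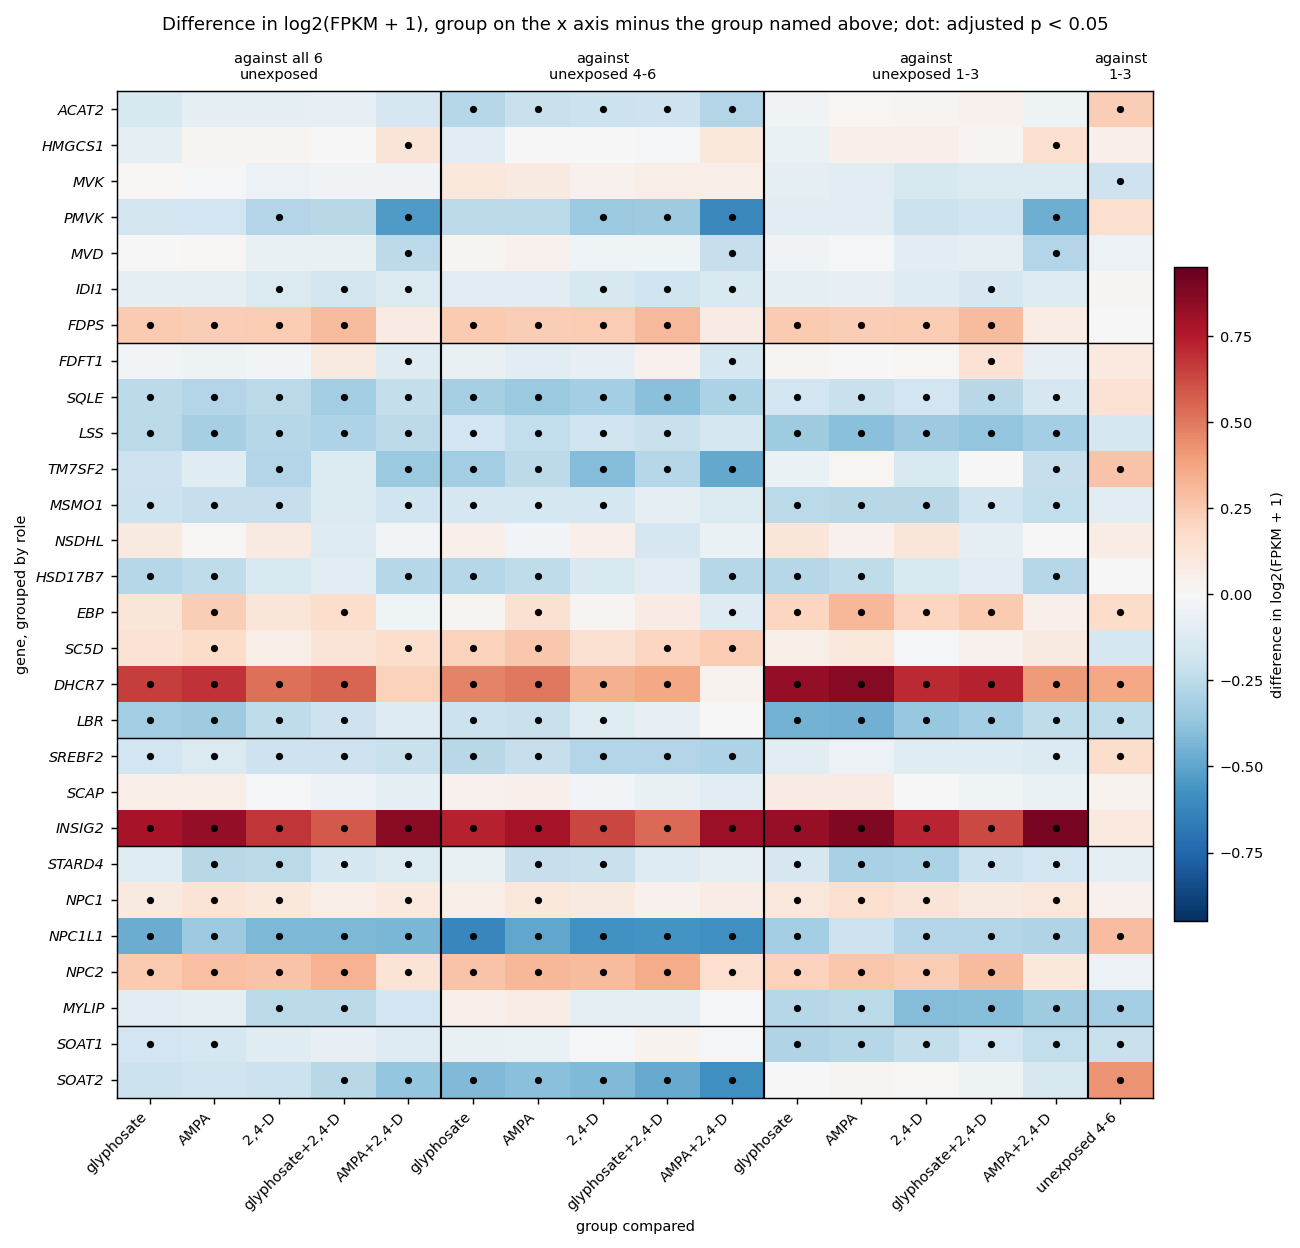
Difference in log2(FPKM + 1) for the 28 members (rows, grouped by role) in each exposure against all 6 unexposed libraries, against libraries 4 to 6 and against libraries 1 to 3, and of unexposed libraries 4 to 6 against 1 to 3 (last column); dots mark a limma adjusted p under 0.05. INSIG2 is red and SQLE blue with a dot in every exposure column, while SOAT2 has dots in all 5 exposures against libraries 4 to 6 and in 0 of 5 against libraries 1 to 3.

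In uptake and trafficking, NPC1L1 fell and NPC2 rose in every exposure. Of these 5 members, 2 were higher and 1 lower with glyphosate, 2 and 2 with AMPA, 2 and 3 with 2,4-D, 1 and 3 with glyphosate+2,4-D, and 2 and 2 with AMPA+2,4-D, beside the same 25.0 to 28.0% and 22.6 to 25.1% over all genes. NPC1L1 (ENSG00000015520, chromosome 7, 44512535 to 44541315), the sterol transporter of the apical membrane, had 2.21, 1.89 and 2.34 FPKM with glyphosate, 2.49, 2.58 and 2.23 with AMPA, 2.45, 2.20 and 2.07 with 2,4-D, 2.15, 1.92 and 2.72 with glyphosate+2,4-D and 2.21, 2.53 and 1.96 with AMPA+2,4-D. Unexposed libraries 4 to 6 had 3.76, 3.88 and 3.83 FPKM and libraries 1 to 3 had 3.17, 3.02 and 2.62 FPKM. Only glyphosate+2,4-D, through its library 3, overlapped the unexposed range.

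The NPC1L1 difference was -0.47 to -0.34 (log2, SE 0.10, limma adjusted p = 0.000507 to 0.00606), -0.62 to -0.49 against unexposed libraries 4 to 6 and -0.32 to -0.20 against libraries 1 to 3, where AMPA did not pass (limma adjusted p = 0.0650). NPC2, the soluble lysosomal cholesterol carrier, averaged 45.9 ± 0.547 FPKM with glyphosate, 47.3 ± 1.97 with AMPA, 46.8 ± 2.49 with 2,4-D, 48.6 ± 1.88 with glyphosate+2,4-D and 42.3 ± 1.56 with AMPA+2,4-D, against 38.6 ± 2.06 FPKM in unexposed cells (SD, n = 3 and 6). Its differences were 0.13 to 0.33 (log2, SE 0.05, limma adjusted p = 1.29e-05 to 0.0239). The AMPA+2,4-D call, the lowest, was lost without that exposure's library 2 (limma adjusted p = 0.124), against libraries 1 to 3, and after rescaling to TPM (0.02, limma adjusted p = 0.791). NPC2 shares 103 exon bases with ISCA2 on the opposite strand, which averaged 5.01 FPKM.

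NPC1, the membrane partner of NPC2, was higher by 0.09 to 0.13 in 4 exposures (log2, SE 0.03) on the deposited scale, at 15.1 to 15.6 FPKM on average against 14.2 ± 0.277 FPKM in unexposed cells (SD, n = 6). After rescaling to TPM, no NPC1 call held: the differences with glyphosate, AMPA and AMPA+2,4-D were -0.03 to -0.01 and that with 2,4-D was 0.01. On the deposited scale glyphosate+2,4-D had 0.06 without passing. The NPC1 calls with 2,4-D, glyphosate and AMPA+2,4-D were each lost without single libraries, among them glyphosate 1, 2 or 3, 2,4-D 1 or 2, AMPA+2,4-D 2 or 3 and unexposed 1 or 3. Against libraries 4 to 6 NPC1 was higher in 1 exposure (0.04 to 0.11 over all 5), and against libraries 1 to 3 in 4 (0.08 to 0.15). NPC1 also shares 604 exon bases with RMC1 on the other strand. STARD4, a cytosolic sterol carrier, was lower in 4 exposures (-0.27 to -0.14, SE 0.05) and had -0.12 with glyphosate (limma adjusted p = 0.0588). Its mixture calls were lost without glyphosate+2,4-D library 3, and without AMPA+2,4-D library 2 or 3 or unexposed library 1 or 2. Against libraries 4 to 6 STARD4 was lower in 2 exposures (-0.22 to -0.07 over all 5), and against libraries 1 to 3 in all 5 (-0.31 to -0.16). MYLIP, a ubiquitin ligase that removes lipoprotein receptors, was lower with 2,4-D (-0.26) and glyphosate+2,4-D (-0.25, SE 0.09), calls lost without library 2 or 3 of the same exposure and without any 1 of unexposed libraries 1 to 3. Against libraries 4 to 6 MYLIP passed in no exposure (-0.09 to 0.07, SE 0.07), and against libraries 1 to 3 it was lower in all 5 (-0.41 to -0.25).

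Of the cholesterol-esterifying enzymes, SOAT2 (ENSG00000167780, chromosome 12, 53103518 to 53124538), the form of hepatocytes and enterocytes, had 20.7, 18.6 and 19.7 FPKM with glyphosate, 20.7, 19.7 and 19.4 with AMPA, 20.6, 19.4 and 18.9 with 2,4-D, 19.5, 18.1 and 19.0 with glyphosate+2,4-D and 17.8, 19.2 and 15.6 with AMPA+2,4-D. Unexposed libraries 4 to 6 had 26.8, 25.9 and 27.2 FPKM and libraries 1 to 3 had 21.01, 20.4 and 17.4 FPKM. Each exposure overlapped unexposed libraries 1 to 3 and lay wholly below libraries 4 to 6. SOAT2 passed with glyphosate+2,4-D (-0.26, limma adjusted p = 0.0499) and AMPA+2,4-D (-0.37 ± 0.11, SE, limma adjusted p = 0.00834), and it was -0.58 to -0.40 against libraries 4 to 6 but -0.15 to 0.03 against libraries 1 to 3. The glyphosate+2,4-D call was lost without any 1 of its libraries (0.0784 to 0.150) and the AMPA+2,4-D call without its library 3 (0.0654). After rescaling to TPM, SOAT2 also passed as lower with glyphosate (-0.31), AMPA (-0.36) and 2,4-D (-0.31). SOAT1, the widely expressed form, passed as lower with glyphosate (-0.18) and AMPA (-0.17, SE 0.06), calls lost without glyphosate library 3, AMPA library 1 or 2, or unexposed library 2 or 3, while unexposed libraries 4 to 6 lay at 4.56 ± 0.301 FPKM and libraries 1 to 3 at 5.45 ± 0.377 FPKM (SD, n = 3 each). SOAT1 passed in no exposure against libraries 4 to 6 (-0.07 to 0.03) and was lower in all 5 against libraries 1 to 3 (-0.29 to -0.18).

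The unexposed libraries, which no compound separates, differed in 11 of the 28 members. In libraries 4 to 6, 7 members were higher than in libraries 1 to 3 (15.7% of all genes were) and 4 were lower (15.9%). The higher ones with the largest differences were SOAT2 (0.43 ± 0.07, SE), DHCR7 (0.36), NPC1L1 (0.30), TM7SF2 (0.27) and ACAT2 (0.24), and the lower ones were MYLIP (-0.32), LBR (-0.24), SOAT1 (-0.21) and MVK (-0.20; SE 0.04 to 0.09, limma adjusted p = 0.000114 to 0.0274). Leaving out single unexposed libraries ended the calls of ACAT2 (library 5), NPC1L1 (library 3), TM7SF2 (3, 4 or 5), SREBF2 (1, 2 or 5) and MVK (2, 3, 4 or 6). DHCR7 differed from unexposed libraries 1 to 3 in the same direction in the exposures and in libraries 4 to 6, while NPC1L1 averaged lower than both sets in the exposures.

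The mixtures were compared with each of their components, to see what the second compound added. Only AMPA+2,4-D against AMPA gave called members, 2 of 28 against 2.71% of all genes (363 of 13405), and both were lower. DHCR7 averaged 9.64 ± 0.604 FPKM with AMPA+2,4-D and 13.7 ± 0.471 FPKM with AMPA (SD, n = 3 each), a difference of -0.46 ± 0.11 (SE, limma adjusted p = 0.0320). EBP averaged 9.35 ± 0.204 FPKM with AMPA+2,4-D and 11.5 ± 0.299 FPKM with AMPA, a difference of -0.27 ± 0.06 (SE, limma adjusted p = 0.0225). The libraries of both groups did not overlap for either gene, as for 10 of the 28 members, and the share over all genes was not counted. Neither call held without AMPA library 1, 2 or 3 or AMPA+2,4-D library 1 or 3, with limma adjusted p of 0.0753 to 0.169 for DHCR7 and 0.0537 to 0.128 for EBP. Calls over all genes fell too, from 363 to 57, 65 and 26 without AMPA library 1, 2 or 3. They fell to 0 without AMPA+2,4-D library 1 and to 0 without its library 3.

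Against 2,4-D, AMPA+2,4-D gave 0 called members and 0 called genes (0% of 13405), with 5 members and 1415 genes at an unadjusted p under 0.05. The smallest p belonged to DHCR7 (-0.30, 95% interval -0.53 to -0.08), EBP (-0.15, -0.27 to -0.04) and NPC2 (-0.14, -0.25 to -0.03). Glyphosate+2,4-D gave 0 called members and 0 called genes (0%) against glyphosate, with 5 members and 1066 genes at an unadjusted p under 0.05, and likewise 0 and 0 (0%) against 2,4-D, with 2 members and 578 genes. In the first, the smallest p belonged to SCAP (-0.12, 95% interval -0.21 to -0.02), FDFT1 (0.11, 0.01 to 0.21) and NSDHL (-0.21, -0.39 to -0.02). In the second, FDFT1 (0.12, 0.02 to 0.22), NSDHL (-0.21, -0.39 to -0.02) and STARD4 (0.09, -0.03 to 0.22) led. In these 3 comparisons voom on recovered reads also called 0 genes, but library weights called 34 genes in glyphosate+2,4-D against glyphosate and 214 in AMPA+2,4-D against 2,4-D. Leaving out unexposed libraries 1 to 3 gave 25 and 10, leaving out libraries 4 to 6 gave 8 and 0, and AMPA+2,4-D against 2,4-D had 223 called genes without AMPA+2,4-D library 2. The number of called members was 0 in each of these fits. The median 95% interval of a member reached 0.15 to either side.

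**Figure D3:**
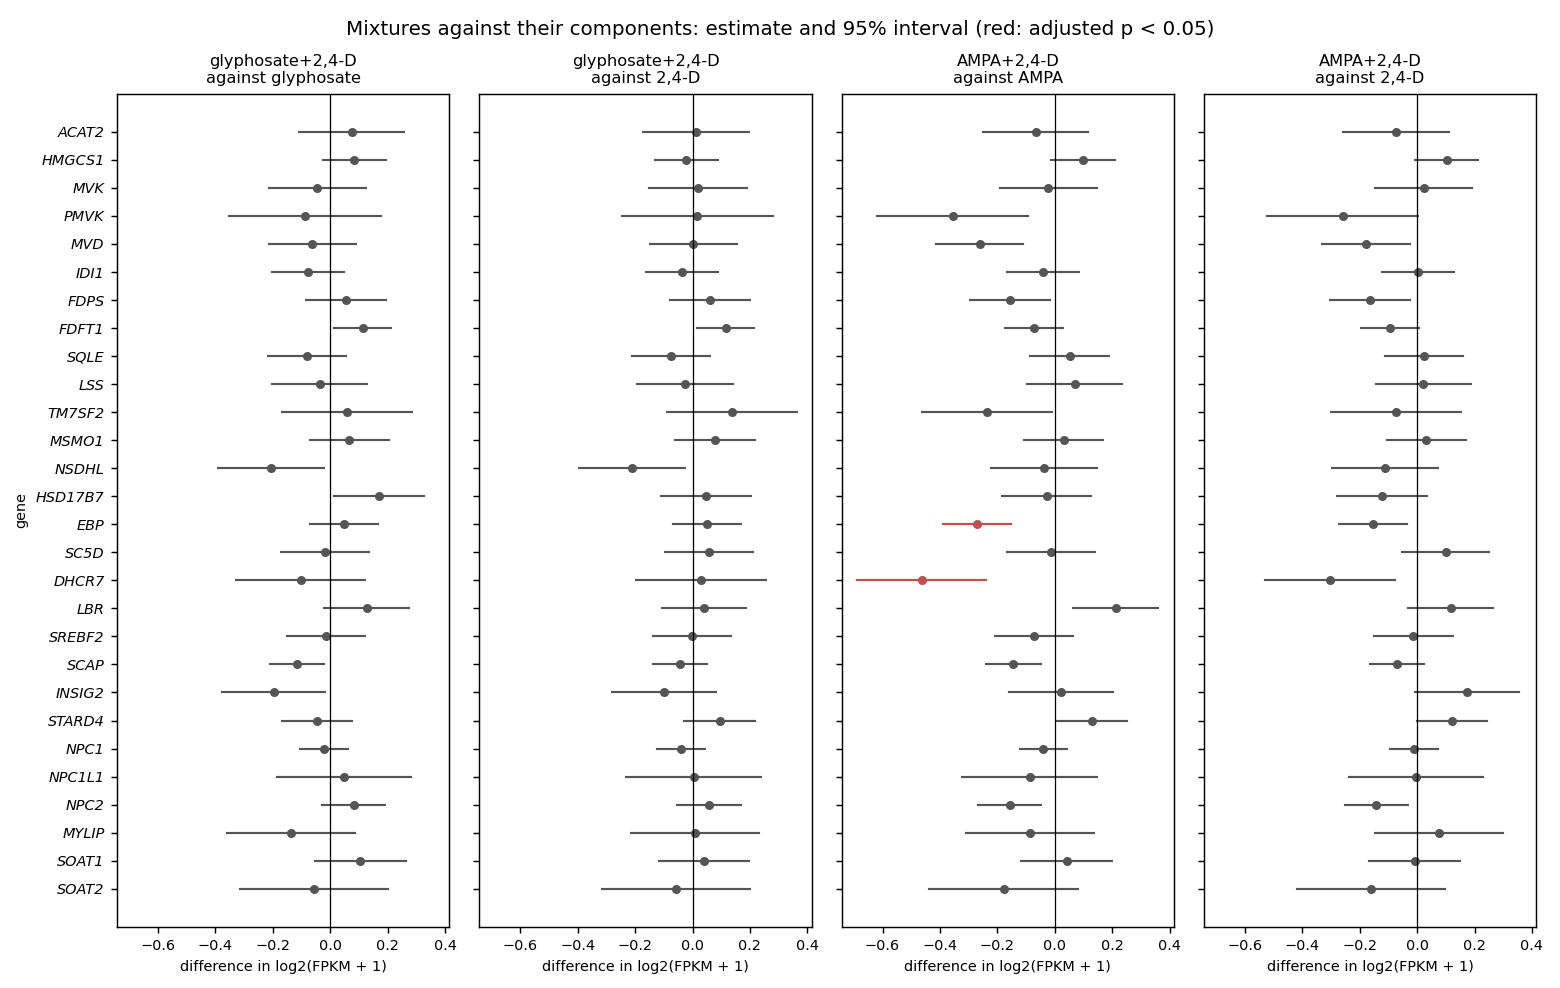
Difference in log2(FPKM + 1) of the 28 members (rows) between each mixture and each of its components, with 95% intervals from limma (lines) and calls at an adjusted p under 0.05 in red. The called members are DHCR7 (-0.46) and EBP (-0.27) in AMPA+2,4-D against AMPA.

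The interaction, defined as mixture plus unexposed minus both single exposures on the log2 scale, was called for 8 members with glyphosate and 2,4-D, against 33.6% of all genes, and for 11 with AMPA and 2,4-D, against 36.7%. INSIG2 had -0.88 and -0.66 (SE 0.11), and DHCR7 had -0.63 and -0.99 (SE 0.14). Each interaction contains the unexposed mean, which also enters every difference from unexposed cells. Where mixture and components have equal levels, the interaction by its construction equals the single exposure's difference with the sign turned, and for INSIG2 neither mixture passed against its components. AMPA and glyphosate were given at different concentrations, so their values stand side by side only: INSIG2 averaged 42.5 ± 1.74 FPKM with AMPA and 41.1 ± 4.90 FPKM with glyphosate, and DHCR7 13.7 ± 0.471 FPKM and 13.4 ± 1.38 FPKM (SD, n = 3 each).

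Genes around the module, 37 tested of 43 listed, were read in the same fits, in which 25.0 to 28.0% of all genes were higher and 22.6 to 25.1% lower over the exposures. Of the 37, 9 to 12 were higher and 12 to 15 lower. In SREBP processing and sterol-dependent degradation, 3 to 4 of 10 were higher and 4 to 6 lower in each exposure. MBTPS1 and MBTPS2, the proteases that cleave SREBP, were lower in all 5 (-0.37 to -0.30 and -0.33 to -0.23, SE 0.04), as was ERLIN1, an endoplasmic reticulum scaffold that binds the SCAP complex in sterol-rich cells (-0.43 to -0.31, SE 0.04). AUP1, a factor of sterol-dependent degradation in the same membrane, was higher in all 5 (0.21 to 0.35, SE 0.04), though after rescaling to TPM AUP1 did not pass with 2,4-D (0.11) or glyphosate+2,4-D (0.12). MBTPS1, for example, averaged 15.7 to 16.5 FPKM over the exposures, against 19.6 ± 0.265 FPKM in unexposed libraries 4 to 6 and 21.7 ± 0.633 FPKM in libraries 1 to 3 (SD, n = 3 each).

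Of the sterol transfer proteins, 7 of 10 were tested, with 2 to 3 higher and 1 to 2 lower. GRAMD1A, which moves cholesterol from the plasma membrane to the endoplasmic reticulum, was higher in all 5 exposures (0.38 to 0.64, SE 0.05), at 10.9 to 13.2 FPKM on average against 8.13 ± 0.504 FPKM in unexposed cells (SD, n = 6). OSBP, an oxysterol-binding exchanger, was lower in all 5 (-0.38 to -0.30, SE 0.05), and OSBPL2 was higher in all 5 (0.12 to 0.16, SE 0.04) on the deposited scale but passed in none after rescaling to TPM (0.0034 to 0.071), and OSBPL2 passed in 3 against unexposed libraries 1 to 3. SCARB1, the HDL receptor, was higher in all 5 (0.24 to 0.52, SE 0.07), at 33.8 to 41.0 FPKM against 31.8 ± 0.208 FPKM in unexposed libraries 4 to 6 and 25.3 ± 0.887 FPKM in libraries 1 to 3 (SD, n = 3 each). With AMPA+2,4-D SCARB1 was not called against both sets, nor after rescaling to TPM (0.14, limma adjusted p = 0.112). Of the 4 receptors and adaptors, 1 to 2 were higher and 0 to 1 lower.

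In the isoprenoid branches, 2 of 9 were higher and 1 to 3 lower in each exposure. PDSS1, which makes the side chain of coenzyme Q, was higher in all 5 (0.37 to 0.40, SE 0.08). Of the 4 genes of precursor supply, 0 to 1 were higher and 1 to 3 lower, with ACAT1, the mitochondrial thiolase, lower in all 5 (-0.33 to -0.20, SE 0.04). Of oxysterol formation and LXR, 3 of 6 were tested, 0 were higher and 1 to 3 lower, with NR1H2, the gene of LXR beta, lower in all 5 (-0.39 to -0.25, SE 0.08), with glyphosate+2,4-D only while its library 1 was kept. Against unexposed libraries 4 to 6 NR1H2 passed in 3 exposures, not in the mixtures (-0.29 to -0.14 over all 5). The median over all 37 was -0.10 to -0.06 (log2), against 0.00 to 0.01 over all genes.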

How the data were processed

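Levels were read from the deposited tables as FPKM, whose scaling between libraries is not given in the sources used here. HISAT2 2.0.5, featureCounts 1.5.0-p3 and GRCh38 are named, per the submitters' processing notes, and strand is not given in the sources used here. Per the labels, libraries were made from total RNA with a SMARTer kit. Reads recovered as FPKM times gene length were whole within 0.1 read, which gave the depths. The 13405 genes present in all 6 tables that reached an FPKM of 1 in 3 or more libraries entered the test, with limma 3.58.1 (R 4.3.3, and the data.table package, 1.17.8) on log2(FPKM + 1) with a trend, over all 21 libraries, without a replicate block. A fit with 6 groups gave differences from unexposed cells, mixtures and interactions, and a fit with 7 groups, in which unexposed libraries 4 to 6 and 1 to 3 stood apart, gave the rest. The fits were run on simulated libraries drawn from the pooled unexposed profile, with changes in glyphosate alone, and the outcome is not given here. The simulation held no difference between the unexposed sets and no unequal scaling, so it does not test how the fits handle those. Tables and figures used Python 3.11.15, pandas 2.3.3 and matplotlib 3.10.9. Full values were given for members called the same way in all 5 exposures against both unexposed sets and for the member of each role with the largest mean difference, every called member of a mixture comparison was named (otherwise the 3 smallest p), the 5 largest each way between unexposed sets, and up to 4 genes of each added list. Alternatives were TPM, voom on recovered reads, scaling by median of ratios, a pseudocount of 0.1, library weights, the compared groups alone, a test without the filter, a replicate block and left-out libraries. The median-of-ratios factors were 1.005 to 1.011 in exposed and 1.002 to 1.012 in unexposed libraries. That scaling could therefore change little, and it is no separate check of the scale. The members and lists were chosen with earlier results of these data known.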

Additional observations from a re-analysis of the deposited data

Results flagged for a closer look

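The interaction, mixture plus unexposed minus both single exposures in log2(FPKM + 1), passed limma's test (adjusted over 13405 genes) for the members named here. All of these values contain the same unexposed mean as the single differences, and a mixture level with its components gives by construction an interaction equal to the single difference with its sign turned. With glyphosate and 2,4-D it was -0.63 for DHCR7, 0.32 for HSD17B7, -0.88 for INSIG2, 0.37 for LBR, 0.29 for MSMO1, 0.48 for NPC1L1, -0.19 for NPC2 and 0.21 for STARD4. Of these, calls for HSD17B7, MSMO1, NPC1L1, NPC2 and STARD4 were lost without at least 1 single library, and 33.6% of all genes passed. With AMPA and 2,4-D it was -0.99 for DHCR7, -0.39 for EBP, -0.40 for FDPS, -0.66 for INSIG2, 0.45 for LBR, 0.34 for LSS, 0.25 for MSMO1, -0.14 for NPC1, -0.43 for NPC2, 0.31 for SQLE and 0.39 for STARD4. Calls for MSMO1 and NPC1 were lost without at least 1 single library, and 36.7% of all genes passed. No member had a library far from the rest of the 6 unexposed ones by Dixon's test, which was not run on groups of 3.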

How the results depend on the processing

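INSIG2 and SQLE kept their direction against unexposed cells in each exposure under each alternative. Members called against unexposed cells came to 20 with TPM and 20 with voom for glyphosate (13 on the deposited scale) and 23 and 22 for glyphosate+2,4-D (14). Of all 13405 genes, 7079 and 7426 were called for glyphosate (7069 on the deposited scale) and 6758 and 6677 for glyphosate+2,4-D (6445). For AMPA+2,4-D (18) the members called came to 11 with the compared groups alone, where 5455 of all genes were called (6758 with all groups). Its libraries 1 and 3 had been set apart by earlier processing of these files. Their removal leaves 1 library, taken to vary as other groups do, and gave a member median of -0.12. Called against both unexposed sets were 16 with TPM and 15 with voom for glyphosate+2,4-D (8), and for AMPA+2,4-D (8) 16 with TPM, 16 with voom and 4 with the compared groups alone. These member counts have no value without either unexposed set, and the same counts over all genes are not given here for the alternatives. Median differences, in the order glyphosate, AMPA, 2,4-D, glyphosate+2,4-D, then AMPA+2,4-D, were -0.21, -0.26, -0.21, -0.23 and -0.25 with TPM and -0.22, -0.25, -0.22, -0.23 and -0.26 with voom. Without unexposed libraries 1 to 3 they were -0.074 (glyphosate), -0.085 (2,4-D) and -0.11 (AMPA+2,4-D), and without libraries 4 to 6 they were -0.063 (glyphosate) and -0.0085 (AMPA). A pseudocount of 0.1 gave -0.12 (2,4-D) and -0.15 (AMPA+2,4-D), and library weights -0.089 (2,4-D). AMPA+2,4-D against AMPA (2 called) gave 1 with no filter, 0 with the compared groups alone, 6 with library weights, 6 without unexposed libraries 1 to 3 and 5 without 4 to 6. In the same order, 183 (of 23375), 1, 1364, 1161 and 1074 of all genes were called, beside 363 on the deposited scale with all groups. The interaction of glyphosate and 2,4-D (8 called) gave 13 with voom, where 4538 of all genes were called (4498 on the deposited scale). NPC1 turned to -0.012 (glyphosate), -0.027 (AMPA) and -0.017 (AMPA+2,4-D) with TPM and to -0.017, -0.0074 and -0.014 with voom. HMGCS1, not called with AMPA or glyphosate+2,4-D on the deposited scale, turned with TPM to -0.13 for AMPA and -0.13 for glyphosate+2,4-D. The cause was not tested. Leaving out 1 library at a time, members called against unexposed cells ranged from 9 (without glyphosate+2,4-D library 3) to 15 for glyphosate+2,4-D and from 10 (without AMPA+2,4-D library 3) to 20 for AMPA+2,4-D. The same counts over all genes are not given here. Against both sets AMPA+2,4-D ranged from 5 (without its library 3 or unexposed library 1) to 10. AMPA+2,4-D against AMPA ranged from 0 (without AMPA library 1, 2 or 3 or AMPA+2,4-D library 1 or 3) to 3. In the fits with 0 members, in the same order, 57, 65, 26, 0 and 0 of all genes were called, beside 363. The glyphosate interaction ranged from 5 (without glyphosate library 2 or 2,4-D library 1) to 10. In the fits with 5 members, 3986 and 3900 of all genes were called, beside 4498 with all libraries. Medians ranged from -0.094 to -0.046 (AMPA, without its library 2), -0.118 to -0.087 (2,4-D) and -0.15 to -0.12 (AMPA+2,4-D). With the replicate block the calls against unexposed cells were 13, 16, 16, 14 and 18, the same as without it, and AMPA+2,4-D had 7 against both sets. In the labels, same-numbered libraries shared only a number. Their deviations from the group means, for unexposed libraries the mean of all 6, correlated at -0.14 to 0.09, with 0 of 45 pairs over 0.1. Whether they shared a culture or batch was not tested. Precision was limited by 3 libraries per exposure: the median 95% interval of a member reached 0.13 to either side against unexposed cells and 0.20 for interactions.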
